A study of Drosophila melanogaster with 9 samples.

Results

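Serine proteases of the trypsin and chymotrypsin type were followed in whole larvae of the fruit fly Drosophila melanogaster grown at 3 larval densities. The genes were chosen by symbol, with earlier results of these data known. They comprised 16 Jonah genes (Jon followed by a chromosome band) and 11 trypsin genes named with Greek letters (alphaTry to lambdaTry). With 4 genes named Ser with a number, they made up 31 of the 17759 genes in the count table. The RNA of each library (9 in all) was taken from 10 whole larvae pooled together, in the third instar and already wandering, when feeding stops and larvae look for a place to pupate, after growth on a diet of sugar and yeast. The low, medium and high densities, given as 5, 60 and 300 eggs per ml, had 3 libraries each, and the treatment text says that newly hatched larvae were counted out rather than eggs. Strain, sex, hour of collection and time spent wandering are not in the labels, and nothing in them says that the pools of a density came from separate cultures, so p-values measure the spread between these pools.

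Jonah proteases and trypsins are enzymes that midgut cells secrete into the gut lumen, most of them as inactive precursors that become active when a short leading peptide is cut off. Trypsins cut proteins after lysine or arginine, and together with chymotrypsin-like enzymes and peptidases of other classes they break dietary protein into absorbable pieces. Many of these genes arose by local duplication and stand side by side in the genome, so that neighbours can be compared within one library.

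Of the 31 genes, 25 have a single exon in the table's annotation, 4 have 2 exons and 2 have 3. Coordinates are given on the Release 6 assembly, as in the authors' count table. The 11 trypsin genes lie within 20.7 kb of chromosome arm 2R, from 11336840 to 11357537, with CG30025, CG30031 and CG13202 among them. Among the Jonah genes, 3 lie within 5.2 kb of 2L (Jon25Bi to Jon25Biii), 4 within 15.3 kb of 3L (Jon65Ai to Jon65Aiv) and 2 within 2.1 kb further along 3L (Jon66Ci and Jon66Cii). On 3R, 3 Jonah genes lie within 4.0 kb (Jon99Ci to Jon99Ciii) and a further 2 within 2.9 kb (Jon99Fi and Jon99Fii). Some of these neighbours are close copies. Read pairs that fitted several places were counted as fractions by the authors, and 17 of the 31 genes carry fractional counts in at least 1 library; the partner genes of those reads are not recorded.

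Library totals ran from 16822606 to 25141308 counts. Of the 31 proteases, 29 passed the filter on low counts, and 12883 genes in all were tested. Ser12 had 0 counts in all 9 libraries. There 3 counts, taken here as a floor, would be between 0.106 and 0.156 CPM, the unit of read counts scaled to a common library size. The trypsin lambdaTry had 16 counts in all libraries together and was not tested. Log2 CPM correlated between 0.949 and 0.977 within the high group, between 0.976 and 0.987 within medium and between 0.987 and 0.989 within low. These ranges do not say which high library differed. High replicate 3 held the lowest value of the high group in 24 of the 29 tested proteases (82.8%), against 32.2% of all tested genes. It was thus singled out by the values of the proteases themselves. The other groups were uneven as well. Low replicate 1 was the highest low library in 17 of the 29 (58.6%), against 27.5% of all tested genes, and medium replicate 1 the highest medium library in 19 (65.5%), against 30.1%. Each edgeR call of a protease between a pair of densities with all libraries is therefore also given without high replicate 3, and some without other libraries. Of 12 midgut markers, 11 were detected well enough to be tested, while Muc68D was at or near 0 everywhere.

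Jonah genes supplied most of the messages of the 31 genes. Summed over the Jonah genes, CPM averaged 5005 ± 617 (SD, n = 3) at low, 4919 ± 941 at medium and 4157 ± 1042 at high density. Summed trypsins averaged 916 ± 49.1 CPM at low, 800 ± 131 at medium and 1051 ± 317 at high density. The 4 Ser genes together stayed between 2.13 and 5.15 CPM in every library. All 31 genes together took between 0.413% and 0.658% of a library's deposited counts, and both ends of that range were high-density libraries, replicate 3 and replicate 2.

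Levels per length of exon spread over 3 orders of magnitude, with the highest tested gene 1666 times the lowest by mean CPM per kb over all libraries. The leading genes were Jon65Aiv, Jon99Cii, Jon25Biii and Jon99Ciii, which together supplied 56.3% of the summed protease CPM. At low density Jon65Aiv averaged 1394 ± 174 CPM per kb and Jon99Cii 969 ± 122. At high density these neighbours in the order stood at 992 ± 114 and 892 ± 316 CPM per kb, closer than their spread. The most abundant trypsin per length was gammaTry, at 301 ± 38.8 CPM per kb at low density, followed by deltaTry at 276 ± 37.9. The scarcest genes, Jon74E, kappaTry, lambdaTry and the 4 Ser genes, averaged under 3 CPM at every density.

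**Figure D1:**
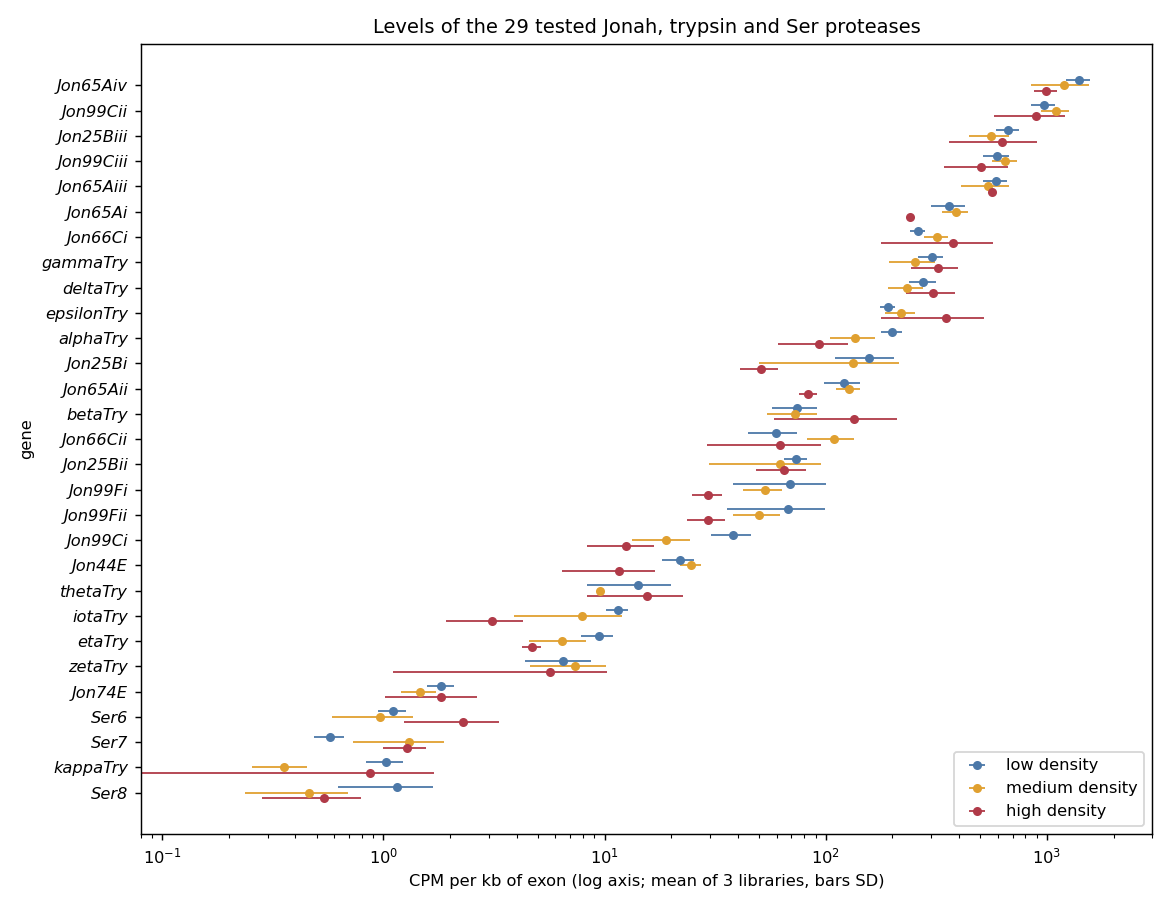
Mean CPM per kb of exon of the 29 tested proteases on a log axis, by density (points, mean of 3 libraries; bars, SD), ordered by the mean over all libraries. Jon65Aiv tops the order with 1394 CPM per kb at low density, and Ser8 is at its foot.

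The first of these, Jon65Aiv (3L from 6039155 to 6040135, plus strand, 2 exons), was at 1415, 1266 and 1100 CPM in low replicates 1 to 3. It was at 1453, 928 and 873 CPM in the medium libraries and at 940, 971 and 780 CPM in the high libraries. Every high library was below every low library, but the log2 fold change of high against low, -0.49 (SE 0.20), was not called (edgeR adjusted p = 0.142). Jon99Cii (3R from 29923754 to 29924615, minus strand) was at 947, 819 and 739 CPM at low, 1070, 804 and 963 CPM at medium and 954, 897 and 456 CPM at high density. Its neighbour and close copy Jon99Ciii was at 841, 721 and 649 CPM at low, 906, 700 and 798 CPM at medium and 761, 725 and 394 CPM at high density. For both copies the groups overlapped, and high replicate 3 alone lay below all other libraries. Summed, which removes the question of how shared reads were divided between them, the pair differed between high and low by -0.17 on the log2 scale (95% interval -0.74 to 0.40, edgeR adjusted p = 0.659). Jon25Biii (2L from 4949941 to 4950767, minus strand) was at 596, 586 and 475 CPM at low, 573, 393 and 424 CPM at medium and 717, 567 and 278 CPM at high density. Here the high group held both the highest and the lowest of the 9 libraries, and the log2 fold change of high against low was -0.09 (95% interval -0.79 to 0.62).

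Larvae from the highest and the lowest density were compared to ask which proteases differ between the ends of the density range. At an adjusted p under 0.05 (edgeR, quasi-likelihood test), 9 of the 29 proteases were called, against 15.2% of all tested genes, and all 9 were lower at high density. Calls of lower level made up 11% of all tested genes and calls of higher level 4.18%. The 9 comprised 6 of 16 tested Jonah genes (Jon25Bi, Jon65Ai, Jon65Aii, Jon99Ci, Jon99Fi and Jon99Fii) and 3 of 10 tested trypsins (alphaTry, etaTry and iotaTry). None of the 3 tested Ser genes passed. The median log2 fold change over the 29 was -0.21, and that over all tested genes 0.06. CPM of the high and low libraries did not overlap in 12 proteases, 11 lower and 1 higher at high density, against 33% of all tested genes, 19.6% lower and 13.4% higher. With library totals in place of TMM factors the split was 6 lower and 1 higher, against 6.89% and 12.9% of all tested genes (19.7% in all), and under that scaling the median over all genes was 0.15 higher.

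The count depended on single libraries. Leaving out low replicate 1 gave 1 call, against 6.16% of all genes tested in that fit. Leaving out low replicate 2 gave 5 (7.39% of all genes), and the same number came without low replicate 3 (7.55%). There were 3 calls without high replicate 1 (12.7%) and 2 without high replicate 2 (7.59%). Without high replicate 3 there were 10, of which 6 were lower and 4 higher at high density, against 21.2% of all genes (14.1% lower and 7.12% higher). RNA came from whole larvae, so fewer cells making an enzyme and less of its RNA per cell cannot be told apart.

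**Figure D2:**
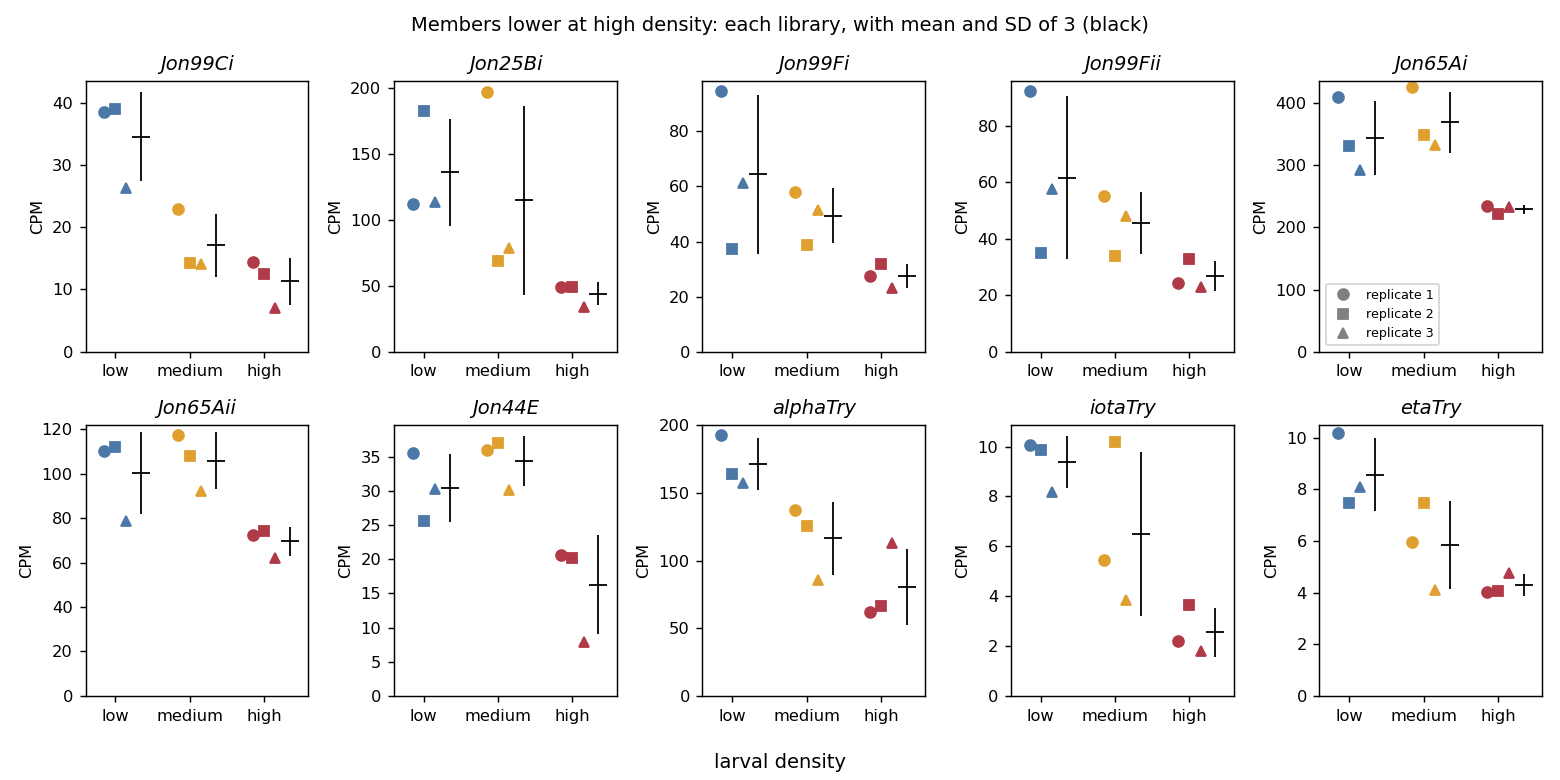
CPM of the 10 proteases called in at least 1 comparison of densities, 1 panel per gene, 1 point per library (shape, replicate number) with mean and SD of 3 libraries in black. All high-density values of Jon99Ci, between 7.10 and 14.4 CPM, lie below its low-density values, between 26.3 and 39.0 CPM.

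Jon99Ci (3R from 29925226 to 29926189, minus strand, 2 exons), the gene next to Jon99Cii, had whole counts only and the smallest adjusted p of the set. Its CPM were 38.5, 39.0 and 26.3 in the low libraries, 22.9, 14.3 and 14.1 in the medium libraries and 14.4, 12.5 and 7.10 in the high libraries. Medium and high libraries were all below the low ones, and medium replicate 1 was the highest of the 6. The log2 fold change of high against low was -1.61 (SE 0.30, edgeR adjusted p = 0.0110). It was called in all 17 alternative fits, and without high replicate 3 it stood at -1.35 (edgeR adjusted p = 0.00754). Its share of the counts of the Jon99C genes was 2.14% ± 0.31 (SD, n = 3) at low, 0.961% ± 0.18 at medium and 0.809% ± 0.036 at high density, while Jon99Cii and Jon99Ciii divided the rest.

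Jon99Fi (3R from 30488963 to 30489895, plus strand) and Jon99Fii (3R from 30487016 to 30487928, minus strand) are close copies on opposite strands. Jon99Fi was at 94.7, 37.2 and 61.2 CPM at low, 58.1, 38.6 and 51.3 CPM at medium and 27.4, 31.7 and 23.1 CPM at high density. Jon99Fii was at 92.3, 34.95 and 57.7 CPM at low, 55.3, 33.8 and 47.9 CPM at medium and 24.4, 32.7 and 23.1 CPM at high density. In both, low replicate 1 was far above the other low libraries. All high libraries were below low replicate 2, high replicate 2 being the nearest. The log2 fold changes of high against low were -1.23 (SE 0.31, edgeR adjusted p = 0.0333) for Jon99Fi and -1.21 (SE 0.34, edgeR adjusted p = 0.0456) for Jon99Fii. For the sum of both copies it was -1.22, with an SE of 0.32 and an adjusted p of 0.0382 in edgeR. These calls were among the least stable: without low replicate 1 the values were -0.85 (edgeR adjusted p = 0.0974) for Jon99Fi and -0.80 (edgeR adjusted p = 0.142) for Jon99Fii, and without high replicate 3 they were -1.12 (edgeR adjusted p = 0.0583) and -1.11 (edgeR adjusted p = 0.0802). Both calls were lost, among other fits, without high replicate 1 or 2 or low replicate 3 too. The copies took near-equal shares of their joint counts at every density, Jon99Fi between 49.2% and 53.3% in single libraries.

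Within the Jon65A cluster, 2 of 4 genes were called. Jon65Ai (3L from 6053493 to 6054443, minus strand) was at 409, 331 and 292 CPM at low, 425, 349 and 332 CPM at medium and 235, 221 and 232 CPM at high density. The 3 high libraries lay close together and below all 6 others, and the log2 fold change of high against low was -0.59 (SE 0.14, edgeR adjusted p = 0.0252), and without high replicate 3 also -0.59 (edgeR adjusted p = 0.0307). Leaving out low replicate 1 ended the call at -0.44 (edgeR adjusted p = 0.0801), as did leaving out low replicate 2 or high replicate 2. Jon65Aii (3L from 6052321 to 6053215, plus strand, 2 exons) was at 110, 112 and 78.9 CPM at low, 118, 108 and 92.3 CPM at medium and 72.4, 74.3 and 61.9 CPM at high density. Its high libraries were also below all others, low replicate 3 being the nearest, and the log2 fold change was -0.53 (SE 0.15, edgeR adjusted p = 0.0481), a call kept in 4 of 17 alternative fits and lost without high replicate 3 at -0.45 (edgeR adjusted p = 0.0864). Jon65Aiii, between Jon65Aii and Jon65Aiv on the plus strand with 2 exons, averaged 514 ± 65.2 CPM at low and 495 ± 13.1 at high density, a difference of -0.05 on the log2 scale (95% interval -0.43 to 0.33). Within the counts of the 4 Jon65A genes, Jon65Aiii took 23.2% ± 0.36 at low, 23.3% ± 0.057 at medium and 29.3% ± 1.4 at high density, and its high shares lay above all others. These shares describe the libraries and were not tested.

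Jon25Bi (2L from 4954279 to 4955144, minus strand) was at 112, 183 and 114 CPM at low, 197, 68.8 and 78.6 CPM at medium and 49.0, 48.9 and 34.0 CPM at high density. The highest values were low replicate 2 and medium replicate 1, and all high libraries were below all others. The log2 fold change of high against low was -1.63 (SE 0.41, edgeR adjusted p = 0.0316), and the call was lost when any 1 of the low or high libraries was left out, without high replicate 3 at -1.47 (edgeR adjusted p = 0.0538). Its share of the Jon25B counts was 17.9% ± 3.7 at low, 17.1% ± 5.1 at medium and 7.56% ± 1.9 at high density. Jon25Biii, in the same cluster, took 73.4% ± 3.5, 74.5% ± 6.8 and 82.7% ± 3.6. Jon25Bii lay between them and averaged 65.8 ± 7.97 CPM at low and 58.0 ± 14.9 at high density.

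Among the trypsins the called genes were an abundant one and a pair of scarce ones. alphaTry (2R from 11344260 to 11345119, minus strand), one of the first fly trypsin genes described, was at 193, 164 and 157 CPM at low, 138, 126 and 86.0 CPM at medium and 62.2, 66.5 and 113 CPM at high density. It was lower in all medium and high libraries than in any low library, and unlike most of the set its high replicate 3 was the highest of the high group. The log2 fold change of high against low was -1.09 (SE 0.25, edgeR adjusted p = 0.0238), a call kept in 12 of 17 alternative fits and lost, among others, without low replicate 1 at -0.998 (edgeR adjusted p = 0.0875). The value was -1.41 (edgeR adjusted p = 0.00135) without high replicate 3. alphaTry carried fractional counts in all 9 libraries, and the genes that shared those reads are not recorded in the table.

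iotaTry (2R from 11356720 to 11357537, plus strand), at the far end of the cluster, was at 10.1, 9.86 and 8.17 CPM at low, 5.45, 10.2 and 3.84 CPM at medium and 2.19, 3.64 and 1.80 CPM at high density. The high libraries were all below the low ones, and medium replicate 2 alone of its group was level with low. Its log2 fold change of high against low, -1.89 (SE 0.39, edgeR adjusted p = 0.0150), was the largest in size among the 9 called, and the call was lost in 1 of 17 alternative fits, without low replicate 1 at -1.84 (edgeR adjusted p = 0.0556). It was -1.69 (edgeR adjusted p = 0.0219) without high replicate 3. etaTry (2R from 11340513 to 11341423, minus strand) was at 10.2, 7.46 and 8.08 CPM at low, 5.96, 7.47 and 4.09 CPM at medium and 4.01, 4.06 and 4.77 CPM at high density. Its high libraries lay below all low ones, the log2 fold change being -0.999 (SE 0.23, edgeR adjusted p = 0.0234) with all libraries and -1.08 (edgeR adjusted p = 0.0229) without high replicate 3. The call was kept in 12 of 17 alternative fits, and at -0.86 (edgeR adjusted p = 0.0933) was lost without low replicate 1.

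The remaining trypsins did not pass the test between high and low. Summed with their close copies CG30025 and CG30031, gammaTry and deltaTry differed by 0.05 on the log2 scale (95% interval -0.43 to 0.53). gammaTry itself was at 264, 260 and 207 CPM at low, 258, 165 and 192 CPM at medium and 292, 299 and 188 CPM at high density. deltaTry was at 224, 255 and 193 CPM at low, 227, 172 and 167 CPM at medium and 281, 287 and 177 CPM at high density. In both genes high replicates 1 and 2 were the highest of all libraries and high replicate 3 was among the lowest.

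A pair of trypsins next to alphaTry, named here after their values were seen, had estimates in the other direction. epsilonTry was at 156, 147 and 171 CPM at low, 196, 149 and 201 CPM at medium and 415, 318 and 136 CPM at high density. betaTry was at 69.8, 68.4 and 101 CPM at low, 98.0, 58.3 and 77.2 CPM at medium and 231, 129 and 70.3 CPM at high density. High replicates 1 and 2 were above every other library in both genes, and high replicate 3 was inside or below the low range. With all libraries, the log2 fold changes of high against low were 0.88 (SE 0.34, edgeR adjusted p = 0.123) for epsilonTry and 0.85 (SE 0.39, edgeR adjusted p = 0.189) for betaTry. Without high replicate 3 both were called higher, at 1.22 (edgeR adjusted p = 0.00109) and 1.19 (edgeR adjusted p = 0.0232). When high replicate 1 was left out instead, they stood at 0.52 (edgeR adjusted p = 0.266) and 0.32 (edgeR adjusted p = 0.481). Jon66Ci, at 237, 214 and 203 CPM at low, 272, 230 and 296 CPM at medium and 428, 389 and 124 CPM at high density, and the scarce Ser6 completed the 4 genes called higher in that fit. For Jon66Ci the log2 fold change was 0.53 (SE 0.38, edgeR adjusted p = 0.381) with all libraries, 0.91 (edgeR adjusted p = 0.00105) without high replicate 3 and 0.23 (edgeR adjusted p = 0.697) without high replicate 1. In all 4 genes high replicate 3 held the lowest high-density value, so leaving it out was bound to raise the estimates. The calls in that fit are therefore no separate support for a higher level.

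**Figure D3:**
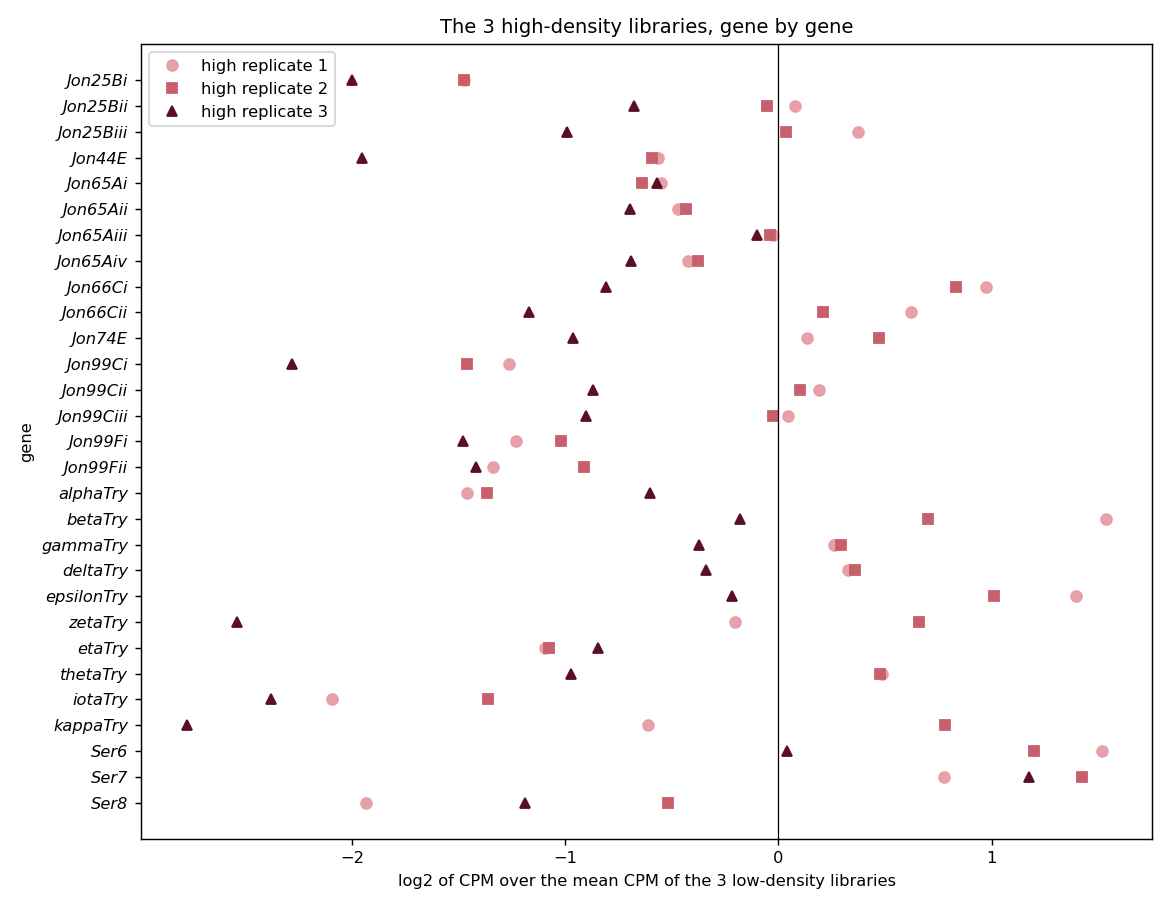
Log2 of the CPM of each high-density library over the mean CPM of the 3 low-density libraries, for each tested protease (shape and shade, replicate). High replicate 3 is the leftmost of the 3 points in 24 of 29 genes, and alphaTry, etaTry, Jon65Ai, Ser7 and Ser8 are the exceptions.

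As a share of the counts of the trypsin cluster, alphaTry took 18.7% ± 1.5 at low, 14.6% ± 3.2 at medium and 8.90% ± 6.3 at high density, with 4.73% and 5.84% in high replicates 1 and 2 and 16.1% in high replicate 3. epsilonTry took 17.3% ± 2.3, 22.9% ± 3.4 and 26.3% ± 6.3. The shares of gammaTry and deltaTry were 26.5% ± 2.1 and 24.4% ± 2.4 at low and 25.1% ± 2.5 and 24.0% ± 2.2 at high density. These shares were not tested either.

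**Figure D4:**
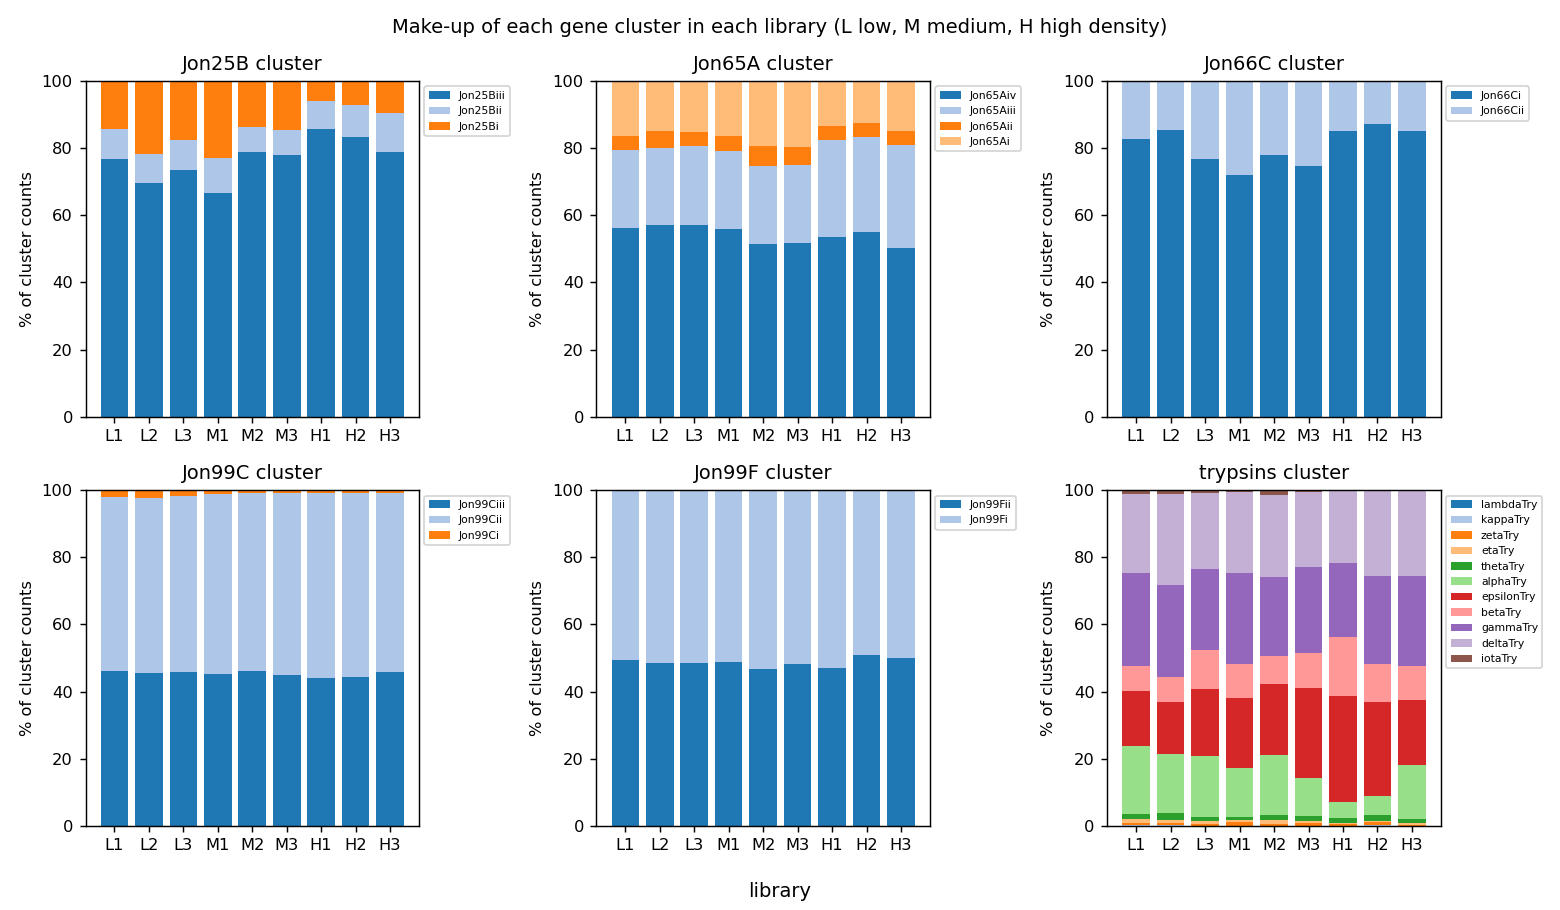
Share of each gene, in percent of the deposited counts summed over its cluster, in each of the 9 libraries (L low, M medium, H high density, with the replicate number). The alphaTry band narrows to 4.73% and 5.84% in H1 and H2, and the Jon99Ci band is 2.14% on average at low density and 0.809% at high density.

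The comparison of medium with low density asks whether a lesser degree of crowding differs from the lowest. edgeR called 0 of the 29 proteases and 0% of all tested genes. At an unadjusted p under 0.05 there were 4 proteases, against 25% of all tested genes, and DESeq2 called 2 proteases, Jon99Ci lower and Ser7 higher at medium density, against 12.2% of all tested genes. Without medium replicate 2, edgeR called 1 protease, Ser7, against 8.34% of all genes tested in that fit. Jon99Ci, with a log2 fold change of -1.02 (SE 0.30), and Ser7, with 1.18 (SE 0.36), had the smallest adjusted p of the set, 0.130 each in edgeR. Ser7 was at 0.695, 0.796 and 0.948 CPM at low, 1.78, 1.07 and 2.70 CPM at medium and 1.39, 2.19 and 1.84 CPM at high density, so all medium and high libraries were above the low ones on between 16 and 54 counts a library. CPM of medium and low did not overlap in 5 proteases, 3 lower and 2 higher, against 40.4% of all tested genes, 22.2% lower and 18.2% higher. The median log2 fold change was -0.24 over the 29 and 0.02 over all tested genes.

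Between high and medium density, edgeR called 5 of the 29 proteases, all lower at high density, against 39.6% of all tested genes, of which 18.3% were lower and 21.3% higher calls. The 5 were Jon25Bi, Jon44E, Jon65Ai, Jon65Aii and iotaTry. This comparison shares its high libraries with that of high against low. With library totals in place of TMM factors 2 were lower and 5 higher, against 7.34% and 38.5% of all tested genes (45.8% in all), and under that scaling the median over all genes was 0.25 higher. Leaving out medium replicate 1 gave 1 call (20.4% of all genes in that fit), and leaving out medium replicate 2 gave 3 (35.4%). Without high replicate 3 there were 12, of which 4 were lower and 8 higher, against 37.2% of all genes (18.5% lower and 18.6% higher). CPM did not overlap in 7 proteases, all lower at high density, against 49.1% of all tested genes, 24.2% lower and 24.9% higher. The median log2 fold change was -0.27 over the 29 and 0.01 over all tested genes.

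Jon65Ai had the smallest adjusted p, with a log2 fold change of high against medium of -0.69 (SE 0.14, edgeR adjusted p = 0.00916), and was called in all 17 alternative fits. Jon65Aii followed at -0.61 (SE 0.15, edgeR adjusted p = 0.0153), a call lost with library totals alone and, at -0.53 (edgeR adjusted p = 0.0572), without medium replicate 1. The fold change of iotaTry was -1.36 (SE 0.38, edgeR adjusted p = 0.0237) and that of Jon25Bi -1.39 (SE 0.41, edgeR adjusted p = 0.0269). Without high replicate 3 these stood at -1.16 (edgeR adjusted p = 0.0569) and -1.23 (edgeR adjusted p = 0.0638), while Jon65Ai stood at -0.69 (edgeR adjusted p = 0.0141) and Jon65Aii at -0.53 (edgeR adjusted p = 0.0344). Single medium libraries moved them further: iotaTry was -0.88 (edgeR adjusted p = 0.0608) without medium replicate 2, and Jon25Bi was -0.75 (edgeR adjusted p = 0.0646) without medium replicate 1. Jon44E (2R from 8691448 to 8692844, plus strand), the only Jonah gene of its chromosome arm, was at 35.6, 25.6 and 30.3 CPM at low, 36.0, 37.1 and 30.2 CPM at medium and 20.6, 20.2 and 7.88 CPM at high density. Every high library was below every low and medium library, and high replicate 3 was lowest by far. Its log2 fold change was -1.09 against medium (SE 0.32, edgeR adjusted p = 0.0285) and -0.91 against low (SE 0.32, edgeR adjusted p = 0.0952). Without high replicate 3 it was -0.75 (edgeR adjusted p = 0.0104) and -0.57 (edgeR adjusted p = 0.0337), called in both. With high replicate 3 kept, the call against medium was lost when any 1 medium library was left out, at between -1.03 and -1.18.

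**Figure D5:**
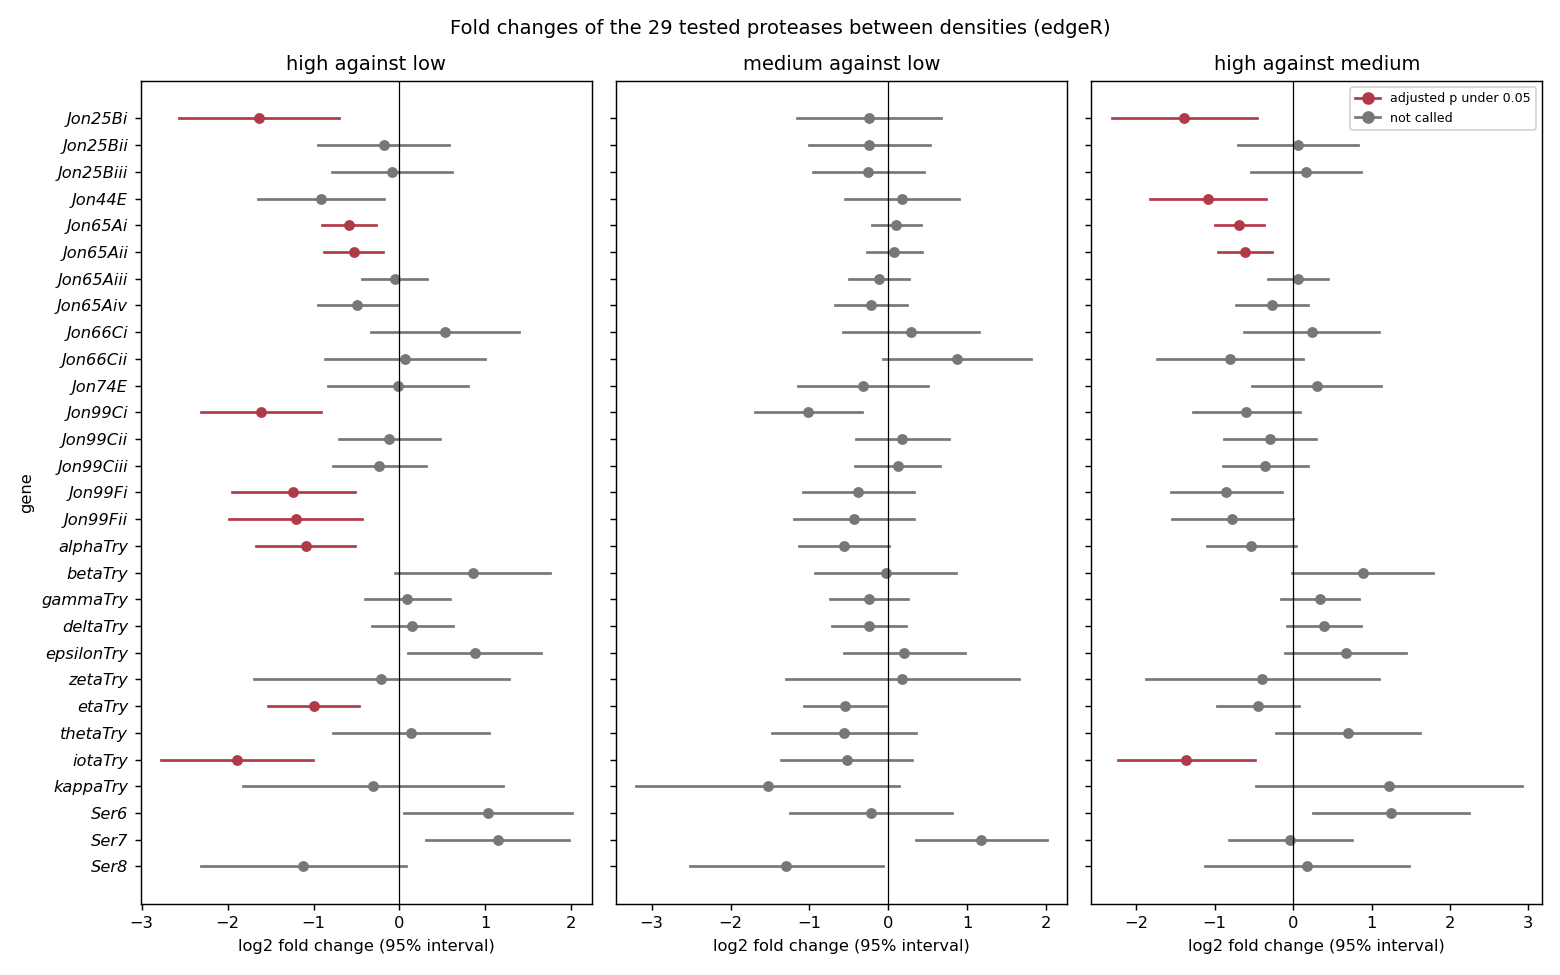
Log2 fold change with 95% interval of each of the 29 tested proteases for high against low, medium against low and high against medium density. Called genes are in red, 9 in the first panel, 0 in the second and 5 in the third, and all of them lie left of 0.

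A joint edgeR test for any difference among the 3 densities called 8 of the 29 proteases, against 33.6% of all tested genes. These were Jon25Bi, Jon65Ai, Jon65Aii, Jon99Ci, Jon99Fi, alphaTry, etaTry and iotaTry, with adjusted p between 0.0170 and 0.0407. Leaving out low replicate 1 gave 1 call (14.1% of all genes in that fit), low replicate 2 gave 4 (17.2%) and low replicate 3 gave 4 (21.9%). Of the medium libraries, leaving out replicate 1 gave 3 (9.8%) and replicate 3 gave 5 (10.6%). Of the high libraries, leaving out replicate 1 gave 3 (37%), replicate 2 gave 1 (7.6%) and replicate 3 gave 12 (32.7%).

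Other digestive enzymes were read from the same fit. Of 26 tested serine proteases of the same class outside the named families, 1 was called lower at high than at low density and 3 higher, with a median log2 fold change of -0.24, against 11% lower, 4.18% higher and a median of 0.06 over all tested genes. With high replicate 3 left out, 7 of 27 were lower and 5 higher and the median was 0.0049, against 14.1% and 7.12% of all genes in that fit. The lower one, CG8299, averaged 55.6 ± 5.81 CPM at low and 16.0 ± 3.20 at high density (log2 fold change -1.80, edgeR adjusted p = 0.0101), and the 3 higher ones, CG17475, CG17477 and CG31267, stayed below 10 CPM in every library. Of 14 tested peptidases of other classes, 3 were called lower and 0 higher, with a median of -0.55, and 5 of 15 lower and 3 higher when high replicate 3 was left out. Cp1, a cathepsin L of lysosomes and gut cells, averaged 696 ± 57.7 CPM at low and 353 ± 20.0 at high density (log2 fold change -0.98, edgeR adjusted p = 0.00196). The lysosomal aspartic protease cathD averaged 1042 ± 75.5 and 664 ± 8.51 CPM (log2 fold change -0.65, edgeR adjusted p = 0.00638). The remaining called gene, CG33128, averaged 198 ± 33.7 CPM at low and 89.8 ± 25.6 at high density (log2 fold change -1.14, edgeR adjusted p = 0.0183). These single genes were named after their values were seen.

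Among 6 genes that regulate the gut or its digestive enzymes, 3 were called lower at high than at low density and 0 higher, with the same counts when high replicate 3 was left out, against the 11% and 4.18% of all tested genes. GATAe, a GATA factor of the endoderm that switches on gut genes, was at 9.21, 7.46 and 7.67 CPM at low, 8.70, 7.15 and 6.19 CPM at medium and 5.15, 4.47 and 4.63 CPM at high density. All its high libraries were below all others, and the log2 fold change of high against low was -0.77 (SE 0.16, edgeR adjusted p = 0.0175). The Activin-type ligand daw, which takes part in the repression of digestive enzymes by dietary sugar, averaged 92.1 ± 2.02 CPM at low, 102 ± 7.62 at medium and 50.8 ± 2.19 at high density (log2 fold change of high against low -0.86, edgeR adjusted p = 0.00104). The GATA factor srp, known from fat body, blood cells and the early midgut, differed by -0.57 (edgeR adjusted p = 0.00550). The receptor gene babo and the Smad gene Smox, which act downstream of daw, were not called between high and low.

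Markers of the midgut and of other tissues were read against the same 11% lower and 4.18% higher calls of all tested genes. Of 11 tested midgut markers 3 were called lower at high than at low density, mex1, GATAe and Myo61F, and 2 higher, Peritrophin-15a and Peritrophin-15b, which code for proteins of the membrane lining the midgut. The summed CPM of the midgut list ranged from 998 to 1037 at low, 860 to 1035 at medium and 895 to 1605 at high density, with high replicate 3 the lowest of its group here too. Leaving that library out gave 3 lower and 5 higher midgut markers, against 14.1% and 7.12% of all genes. Salivary gland markers ranged from 39285 to 44991 summed CPM at low, 39026 to 47819 at medium and 20239 to 35833 at high density, with 3 of 9 tested called lower, 4 higher and ng4 at 0 throughout. Fat body markers ranged from 55880 to 59847, 56027 to 88721 and 39321 to 62088 summed CPM, with 2 of 6 called lower. Leaving out high replicate 3 gave 2 lower and 4 higher salivary gland markers and 2 lower and 1 higher fat body markers. Male germ line markers ranged from 204 to 262, 73.1 to 149 and 182 to 403 summed CPM, with 0 of 7 called between high and low. All 7 were called higher at high than at medium density, against 21.3% of all tested genes. With high replicate 3 left out 5 of them were, against 18.6% of all genes in that fit. The roX RNAs of male somatic cells ranged from 345 to 792, 137 to 423 and 361 to 612 summed CPM, and 0 of 2 were called in any comparison. The part of these differences in the protease results was not tested.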

How the data were processed

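Expected counts per gene were deposited by the authors as 1 table for the 9 libraries, poly(A)-selected and strand-specific per the labels' protocols. Per the file headers, read pairs were counted with featureCounts over exons of the RefSeq annotation of Release 6, by gene and strand (reverse), requiring both mates to map, dropping chimeric pairs and counting pairs with several places as fractions. The submitters' processing notes name Trim Galore 0.6.4, HISAT2 2.1.0, SAMtools 1.9, featureCounts 1.6.2 and DESeq2 1.26.0. Fractional counting makes 5.06% of count values not whole and leaves the division among close copies uncertain.

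Counts were rounded and fitted in edgeR 4.0.16 under R 4.3.3 (filterByExpr, TMM factors, quasi-likelihood F-test, 1 coefficient per density, all 9 libraries), with Benjamini-Hochberg adjustment over 12883 genes and a threshold of 0.05. The procedure was tested on simulated data. CPM are TMM-scaled, cluster shares are of deposited counts, and intervals are 95%. Alternatives were DESeq2 1.42.0, a replicate block, each library left out, other scalings (RLE, upper-quartile or totals alone), other filters (none, or a minimum of 10 counts throughout) and close copies summed, the last added after seeing the data. The labels do not say whether the replicate number pairs samples.

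The genes, the lists and the tests were chosen with earlier results of these data known. Per-library values were given for genes called in any test, for the 4 highest by CPM per kb and for genes sharing reads with those. Other genes were summarised, except that Ser7, Jon25Bii, Jon65Aiii, Jon66Ci, epsilonTry, betaTry, gammaTry, deltaTry and single genes of the other lists were named after their values were seen. No sequences are shown.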

Additional observations from a re-analysis of the deposited data

How the results depend on the processing

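In 17 alternative fits no called protease changed direction. Of 1181 values for proteases called in neither fit, 58 changed sign and 0 left the 95% interval of the reported fit. Between high and low density, 9 calls were reported, other scalings and filters gave 7 or 8 (between 10.4% and 19.7% of all tested genes), DESeq2 gave 12 (10 lower, 2 higher, against 13.9% and 8.57% of all tested genes), and leaving out single libraries gave between 1 and 10. Between medium and low the count was 0, DESeq2 gave 2 (12.2%), and leaving out single libraries gave between 0 and 1. Between high and medium the count was 5, other scalings and filters gave between 5 and 7 (29.9% to 45.8%), DESeq2 gave 7 (44.8%), and leaving out single libraries gave between 1 and 12. The joint test called 8, DESeq2 gave 12 (46.7%), and leaving out single libraries gave between 1 and 12. Close copies summed gave 8, 0, 5 and 8, against 15.2%, 0%, 39.6% and 33.7%.

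With the replicate number as a block the counts were 5, 0, 6 and 5, against 10.9%, 0%, 36% and 23.9% of all tested genes. The labels do not say whether the numbers pair the samples. Deviations of same-numbered libraries correlated between -0.339 and 0.279, and 3 of 9 pairs were over 0.1. Libraries with different numbers reached -0.537 and 0.506, so these correlations cannot decide whether same-numbered libraries shared a batch. The planned sum of copies by 95% protein identity was not run, since no protein sequences were at hand. The limits lie in the number of pools, in the division of shared reads and in single libraries, among them low replicate 1, high replicate 2 and high replicate 3. The causes of the changes with the replicate block and DESeq2 were not tested.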

Other observations

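Several serine proteases outside the named families had, like alphaTry, their highest high-density value in replicate 3. They were picked after their values were seen. CG11912 was at 740, 527 and 398 CPM at low, 356, 515 and 223 CPM at medium and 106, 96.5 and 381 CPM at high density. CG11529 was at 498, 438 and 426 CPM at low, 247, 440 and 288 CPM at medium and 73.8, 96.7 and 316 CPM at high density. CG12951 was at 221, 133 and 121 CPM at low, 115, 114 and 51.5 CPM at medium and 12.3, 27.4 and 82.2 CPM at high density. In each of the 3 genes high replicates 1 and 2 were below all low and medium libraries, and high replicate 3 was within the medium range. None was called between high and low, with log2 fold changes of -1.51 (edgeR adjusted p = 0.107) for CG11912, -1.48 (edgeR adjusted p = 0.0847) for CG11529 and -1.96 (edgeR adjusted p = 0.0760) for CG12951. Without high replicate 3 all were called lower. The values in the same order were -2.45 (edgeR adjusted p = 0.00269), -2.41 (edgeR adjusted p = 0.000365) and -3.01 (edgeR adjusted p = 0.00360). Because the genes were picked for a high value in that library, leaving it out was bound to lower their estimates. These calls are therefore no further support for a difference. In that fit 7 of 27 tested genes of their list were called lower and 5 higher, against 14.1% and 7.12% of all genes. Summed CPM of the 33 proteases in that list ranged from 1970 to 2822 in the low libraries, from 1553 to 2049 in the medium and from 1280 to 1468 in the high, which lay below all others. This sum leans on the picked genes and does not describe the list as a whole. CG11912 averaged 555 CPM at low and 194 at high density, and CG11529 averaged 454 and 162. With all libraries, 1 of the 26 tested genes of the list was called lower at high than at low density and 3 higher.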
